A study of Mus musculus with 6 samples.

Results

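The windows described here are 669 stretches of 1 kb that held 5-methylcytosine (5mC) reads in all 3 replicates and no read of either IgG control. They were taken from 2472349 windows on chromosomes 1 to 19 of mouse build mm9, so that members made up 0.0271% of all windows. Reads with the same chromosome, strand and 5′ position counted as 1 distinct read. A member had at least 4 distinct reads in 5mC replicate 1, at least 4 in replicate 2 and at least 2 in replicate 3, with 0 reads in IgG MeDIP, 0 in IgG ChIP and fewer than 10 in H2A.B ChIP. Because the read numbers of all 6 libraries chose the members, those numbers are given as a description with no test.

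The libraries came from C57Bl/6 mouse embryonic stem cells kept in leukaemia inhibitory factor without feeder cells. The 3 replicates of 5mC were methylated DNA immunoprecipitations (MeDIP) made with mouse monoclonal 33D3 against the methylated base, and IgG MeDIP was 1 library made the same way with mouse IgG. H2A.B ChIP was 1 chromatin immunoprecipitation library made with a rabbit antibody raised by the submitters against the histone variant H2A.B, and IgG ChIP was 1 library made with rabbit IgG. For both IgG libraries the description label names the H2A.B antibody, whereas title and antibody label say IgG and were followed. No genotype, drug or time point set the groups apart. The labels do not state whether the replicates were separate cultures, and since none of the assays measured RNA, the cell type could not be checked against its marker genes.

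In mammals 5mC lies mostly at the cytosine of CpG pairs. It is found over most of the genome in embryonic stem cells, with CpG-rich promoters largely free of it, and is known for silencing repeats, one parental copy of imprinted loci and germline genes. In MeDIP the DNA is sheared and made single-stranded before the antibody is added, and the recovered reads follow both the number of methylated cytosines and the background of the pull-down. Non-specific IgG measures that background, and is known to recover some short tandem repeats from single-stranded DNA. H2A.B is a shortened member of the H2A histone family, best known from the testis and from active, loosely packed chromatin.

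On chromosomes 1 to 19 the 5mC replicates held 1346417, 1839684 and 774788 distinct reads, H2A.B ChIP held 7690224, and the controls held 121384 in IgG MeDIP and 520319 in IgG ChIP. The average window thus had 0.545, 0.744 and 0.313 reads of 5mC replicates 1, 2 and 3, 3.11 of H2A.B, 0.0491 of IgG MeDIP and 0.210 of IgG ChIP. According to every read name, replicate 1 and H2A.B ChIP (42 bp reads) shared a lane of 1 flow cell. Replicate 2 shared a lane with IgG MeDIP, and replicate 3 shared the next lane with IgG ChIP, both with 50 bp reads on a second flow cell. Differences between replicate 1 and the other two 5mC replicates therefore cannot be told apart from flow cell and read length.

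At least 4 reads were present in 66394 windows of replicate 1 and in 74177 of replicate 2, and at least 2 reads in 106596 windows of replicate 3. All 3 criteria were met by 4328 windows, of which 1855 also had fewer than 10 H2A.B reads. Of those, 669 held no IgG read and are the members, and 1186 held at least 1. The 1186 windows are used below as the set most like the members: 747 had reads of IgG MeDIP, 857 had reads of IgG ChIP, and 418 had both.

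A count of 0 in these controls is a weak limit. No IgG MeDIP read in a window allows up to 24.7 CPM (distinct reads per 1000000 distinct reads on chromosomes 1 to 19, taking 3 counts as the upper limit for a count of 0), and no IgG ChIP read allows up to 5.77 CPM. The mean 5mC level of a member was 3.55 CPM at the median, with a range of 2.58 to 12.7 CPM. In 0 of the 669 members did the mean of the 3 replicates pass the IgG MeDIP limit, and in 2 did at least 1 replicate pass it. Against the IgG ChIP limit the mean was higher in 81 members, and all 3 replicates were higher in 2. At this depth a mean level of the 3 5mC replicates above IgG MeDIP was not detectable in any single member. These limits cover counting error only, since PCR reads without molecular identifiers are not independent molecules.

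Most members stood close to the thresholds. Replicate 1 had between 4 and 40 reads per member with a median of 5, replicate 2 also had 4 to 40 with a median of 5, and replicate 3 had 2 to 9 with a median of 2. Exactly 4, 4 and 2 reads were found in 53 members, and 589 were at the threshold in at least 1 replicate. Just inside, 190 members had the minimum of replicate 1, 221 that of replicate 2 and 511 that of replicate 3. Just outside, 311 windows were short by 1 read in replicate 1 alone, 358 in replicate 2 alone and 1688 in replicate 3 alone. H2A.B had 0 to 9 reads with a median of 5, and its mean of 5.44 in members compares with 3.22 in background windows, which are all other windows with 0 IgG reads and 1 to 9 H2A.B reads. It was at 9 reads in 68 members, and 71 windows that met the rest had 10. The position of the window grid also mattered: after a shift by 500 bp the rule found 633 windows, which overlapped 169 of the 669 members.

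The 12 members with the highest minimum of the 3 replicates in CPM show the upper end of the set. The last 3 of them were taken, by their sum of 5mC reads, from a larger tie at 3.87 CPM. The first, on chromosome 3 from 11973001 to 11974000, had 13, 22 and 6 reads of 5mC replicates 1, 2 and 3 and 5 of H2A.B. Its 5mC level was 9.79 ± 2.11 CPM (SD, n = 3). All 22 reads of replicate 2 and all 6 of replicate 3 lay on the minus strand, whereas replicate 1 had 5 on plus and 8 on minus. All 3 replicates were above the IgG ChIP limit here, and all were below that of IgG MeDIP.

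The second, on chromosome 5 from 54727001 to 54728000, had 18, 11 and 9 reads of 5mC replicates 1, 2 and 3 and 5 of H2A.B, with a 5mC level of 10.3 ± 3.86 CPM (SD, n = 3). Replicate 3 lay all on the plus strand, replicate 2 had 9 reads on plus and 2 on minus, and replicate 1 had 8 and 10. It was the other member with all 3 replicates above the IgG ChIP limit. The third, on the same chromosome from 32542001 to 32543000, had 7, 15 and 5 reads at 6.60 ± 1.48 CPM (SD, n = 3) and 8 reads of H2A.B. Here replicates 2 and 3 lay all on the plus strand.

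Replicates differed more in other windows of the group. On chromosome 1 from 190504001 to 190505000, replicate 2 had 40 reads, its highest number in any member and all on the plus strand, against 6 in replicate 1 and 4 in replicate 3. The mean of 10.5 CPM there had an SD of 9.78 (n = 3), so that 1 library set it. Replicate 1 led on chromosome 4 from 13975001 to 13976000, with 33 reads against 18 in replicate 2 and 3 in replicate 3 (12.7 ± 10.6 CPM, SD, n = 3). It led likewise on chromosome 3 from 127475001 to 127476000, with 33, 15 and 3 reads (12.2 ± 10.9 CPM, SD, n = 3). In that last window replicate 1 had 30 reads on the plus strand and 3 on the minus strand, while all 15 of replicate 2 and all 3 of replicate 3 lay on the minus strand.

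The other 6 windows lay on chromosome 13 from 16699001 to 16700000, chromosome 12 from 43341001 to 43342000 and from 59257001 to 59258000, chromosome 3 from 6607001 to 6608000, chromosome 6 from 139611001 to 139612000, and chromosome 15 from 7316001 to 7317000. Their 5mC levels ran from 5.58 ± 0.966 to 9.39 ± 4.96 CPM (SD, n = 3), with 3 to 9 H2A.B reads. In 7 of the 12 windows replicates 2 and 3 had all their reads on 1 and the same strand, minus in 5 and plus in 2, and in all 7 replicate 1 had reads on both strands. No gene was placed in these windows, because no annotation of build mm9 was used here.

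**Figure D1:**
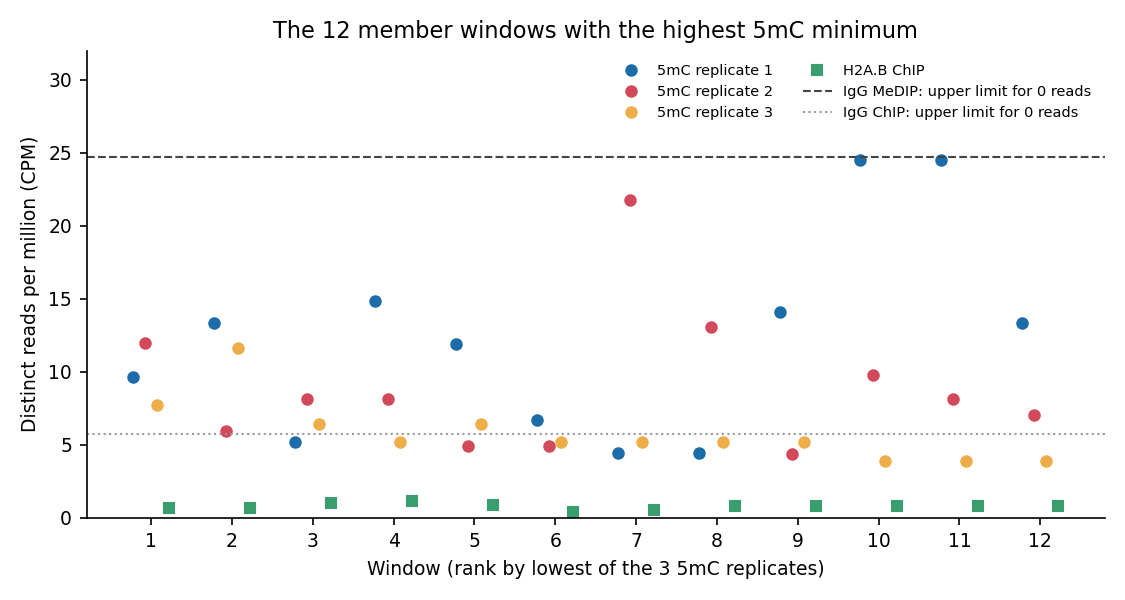
Distinct reads in CPM in the 12 members with the highest minimum over the 5mC replicates (circles for 5mC replicates 1, 2 and 3, squares for H2A.B ChIP), with the upper limits that 0 reads allow in IgG MeDIP (dashed, 24.7 CPM) and IgG ChIP (dotted, 5.77 CPM). No circle lies above the dashed line, and all 3 circles are above the dotted line in the first and second windows only.

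Whether windows chosen by some libraries were also rich in another was asked by leaving out each library's criterion in turn. The mean of the left-out library in the windows so chosen was divided by its mean in background windows (0 reads in the IgG libraries that stayed in the rule and 1 to 9 H2A.B reads). Left out of the choice, replicate 1 had 2.27 reads per window in 3537 windows, against 0.485 in the background, a ratio of 4.68 (95% exact Poisson interval 4.57 to 4.78). Replicate 2 had 2.68 reads in 2685 windows, against 0.612, a ratio of 4.37 (4.27 to 4.48). Replicate 3 had 0.566 reads in 5725 windows, against 0.289, a ratio of 1.96 (1.89 to 2.02). Every 5mC replicate was thus above its background where the other two chose the windows, by 3.67 ± 1.49 times on average (SD, n = 3). With background windows weighted to the same H2A.B read numbers as the chosen windows, the ratios were lower, at 3.20, 3.29 and 1.68 for replicates 1, 2 and 3.

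Reads of the controls were also more frequent in windows that the 5mC replicates chose. With only its own criterion left out, IgG MeDIP had 0.471 reads per window in 998 windows, against 0.0369 in the background, a ratio of 12.8 (11.6 to 14.0). IgG ChIP had 0.582 reads in 1108 windows, against 0.203, a ratio of 2.86 (2.65 to 3.09). H2A.B had 9.23 reads in 1019 windows, against 3.44 in windows with at least 1 5mC read and no IgG read, a ratio of 2.69 (2.63 to 2.74). The ratio of IgG MeDIP was thus above that of each 5mC replicate. These intervals cover counting error only, and with 1 library of each control and 3 of 5mC the smallest p of an exact permutation test is 0.25, so no test was made.

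Read as calls, 18.9% of the windows chosen without replicate 1 reached its threshold of 4 reads, against 2.15% of background windows. The threshold of replicate 2 was reached in 24.9% of windows chosen without it, against 1.99%, and that of replicate 3 in 11.7%, against 3.82%. At least 1 IgG MeDIP read was present in 33.0% of windows chosen without that control, against 3.46% of background windows, and at least 1 IgG ChIP read in 39.6%, against 18.0%. At least 10 H2A.B reads were present in 34.3%, against 2.97%. Windows that failed a single criterion numbered 329 for IgG MeDIP, 439 for IgG ChIP and 350 for H2A.B.

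The choices above differ in their conditions on IgG and in the number of 5mC criteria. Windows were therefore also chosen by 2 of the 5mC replicates at a time, with 1 to 9 H2A.B reads and no condition on IgG. This alternative was added after the data had been seen. In the 9449 windows chosen by replicates 2 and 3, replicate 1 was at 4.38 times its background, IgG MeDIP at 15.1 and IgG ChIP at 4.27. In the 4875 chosen by replicates 1 and 3, replicate 2 was at 7.12, IgG MeDIP at 8.53 and IgG ChIP at 2.40. In the 10839 chosen by replicates 1 and 2, replicate 3 was at 2.48, IgG MeDIP at 9.62 and IgG ChIP at 2.05. IgG MeDIP was above the left-out 5mC replicate in each of the 3 choices, including the choice without its lane mate replicate 2. IgG ChIP was below it in each before any weighting, although in the choice by replicates 2 and 3 the intervals overlapped (4.32 to 4.44 for replicate 1 and 4.18 to 4.37 for IgG ChIP). The mean over the choices was 4.66 ± 2.33 for the left-out 5mC replicate, 11.1 ± 3.51 for IgG MeDIP and 2.91 ± 1.19 for IgG ChIP (SD, n = 3 choices that share libraries). With background windows weighted to the same H2A.B read numbers, the means were 3.33, 7.62 and 2.55. In the choice by replicates 2 and 3 the order of replicate 1 and IgG ChIP then turned round, with replicate 1 at 2.93 (2.89 to 2.97) and IgG ChIP at 3.80 (3.72 to 3.88). In the other choices the left-out replicate stayed above IgG ChIP, at 4.99 for replicate 2 against 2.08 and at 2.08 for replicate 3 against 1.78.

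**Figure D2:**
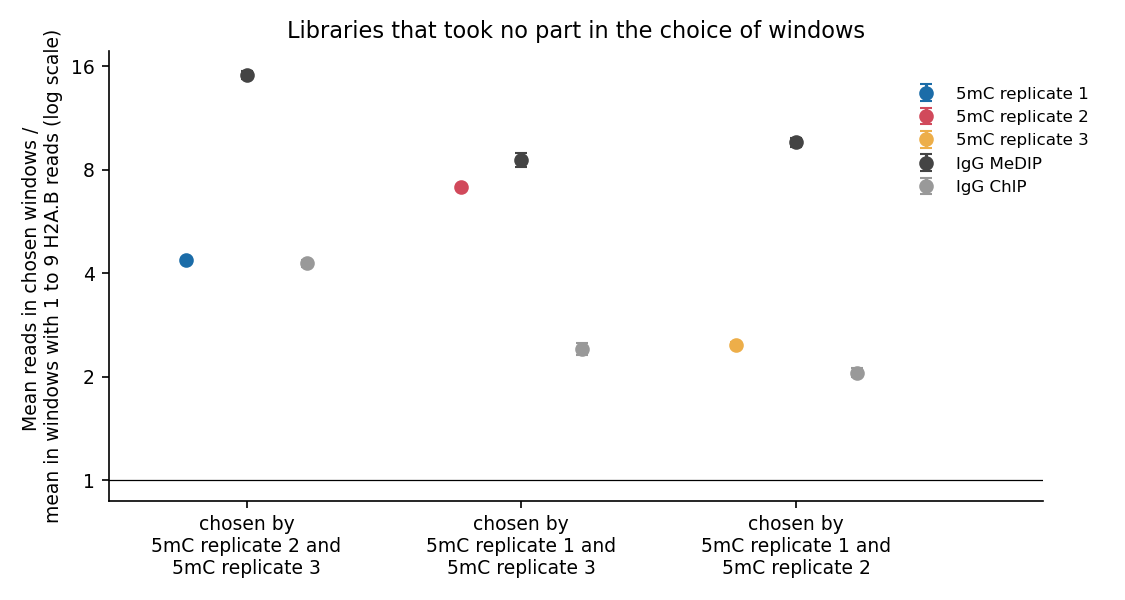
Mean distinct reads in windows chosen by 2 of the 5mC replicates, divided by the mean in all windows with 1 to 9 H2A.B reads (log scale), for the left-out 5mC replicate, IgG MeDIP and IgG ChIP, with 95% Poisson intervals that are mostly smaller than the points. IgG MeDIP is the highest point in all 3 choices, at 8.53 to 15.1, and every point is above 1.

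Windows beside the members took no part in the rule. At 1 kb on either side, with other members left out, reads per kb relative to those 21 to 50 kb away were 2.98 for replicate 1 (95% Poisson interval 2.88 to 3.08), 2.01 for replicate 2 (1.94 to 2.09) and 1.26 for replicate 3 (1.16 to 1.37). H2A.B was at 1.16 (1.13 to 1.18), IgG MeDIP at 2.04 (1.75 to 2.37, from 174 reads in 1330 windows) and IgG ChIP at 1.24 (1.12 to 1.37). All 6 libraries were therefore higher next to a member than further away, by the most in replicate 1. The intervals of replicate 2 and IgG MeDIP overlapped, as did those of replicate 3, H2A.B and IgG ChIP with one another.

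The rise was narrow in most libraries. At 2 kb the values were 1.75, 1.42 and 1.00 for 5mC replicates 1, 2 and 3, 1.04 for H2A.B, 1.18 for IgG MeDIP and 1.01 for IgG ChIP. From 3 to 5 kb replicate 1 was still at 1.47, with replicates 2 and 3 at 1.15 and 1.13, H2A.B at 1.02, IgG MeDIP at 1.09 and IgG ChIP at 1.05. The surroundings at 21 to 50 kb were in turn above each library's mean over all windows, by 1.54, 1.35 and 1.15 times for the 5mC replicates, 1.28 for H2A.B, 1.30 for IgG MeDIP and 1.14 for IgG ChIP.

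**Figure D3:**
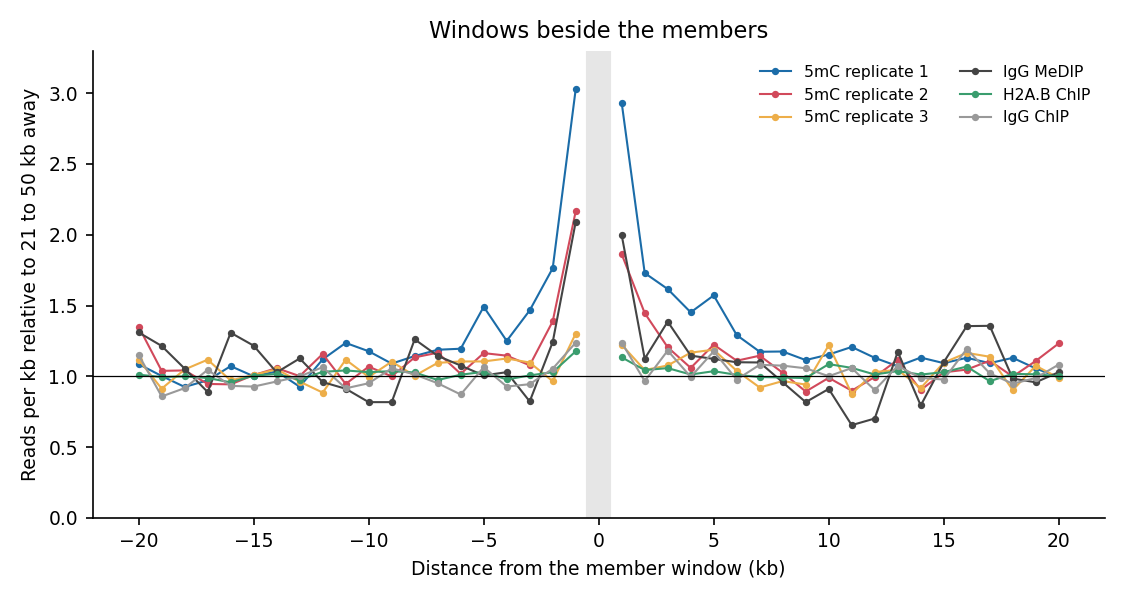
Reads per kb at 1 to 20 kb on either side of the members, relative to the mean at 21 to 50 kb, with 1 line for each library and the member itself shaded. Replicate 1 is the highest line beside the members (2.98 on average at 1 kb), replicate 2 and IgG MeDIP run close together (2.01 and 2.04), and the other 3 libraries stay under 1.5.

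The rule did not use the strand of reads. In members the plus-strand share was 58.0% in replicate 1 (Wilson 95% interval 56.6 to 59.4), 34.5% in replicate 2 (33.1 to 35.9) and 34.5% in replicate 3 (32.2 to 36.9). The intervals treat every read as independent, although reads of a window tended to share a strand, as given next. They therefore leave out the spread between windows. Background windows had 55.6%, 46.6% and 46.5% in the same libraries. H2A.B had 56.9% in members, against 52.7% in the background. Replicates 2 and 3 thus leaned to the minus strand more in members than in background windows, while replicate 1 and H2A.B had more plus reads.

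Reads of a window also tended to share a strand. Among pairs of reads within a member, with each window given equal weight, 58.2% were on the same strand in replicate 1, 74.0% in replicate 2 and 66.4% in replicate 3, where reads placed on either strand with equal chance would give 50%. The background windows had 58.2%, 63.1% and 56.0%, and H2A.B had 53.6% in members against 51.0%. Replicate 1 was at its background value, and replicates 2 and 3 were above theirs. The lean of replicates 2 and 3 to the minus strand in members raises such shares by itself, within and between these libraries, and its part was not separated.

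Pairs made of a read of replicate 2 and a read of replicate 3 were on the same strand in 67.8% of cases in members, against 55.4% in background windows. No such excess was seen with replicate 1, for which the values were 53.1% with replicate 2, against 55.3%, and 51.3% with replicate 3, against 52.9%. Counted by window, all reads lay on 1 strand in 104 members (15.5%) in replicate 1, 286 (42.8%) in replicate 2 and 423 (63.2%) in replicate 3. Among background windows with at least 2 reads of the library the shares were 44.9%, 55.0% and 53.2%. These counts depend on the number of reads, which was higher in members for replicates 1 and 2 and had a median of 2 in replicate 3, so they do not show a strand preference by themselves. In 182 members replicates 2 and 3 lay wholly on the same strand, minus in 143 and plus in 39, and in 141 of these replicate 1 had reads on both strands. In 12 members they lay wholly on opposite strands. Reads on both strands in all 3 replicates were present in 137 members. Such joint counts also depend on the number of reads and on the lean to the minus strand. No joint counts are given for background windows or the windows with IgG reads, so they are not shown to be particular to the members.

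The windows that met the same 5mC and H2A.B criteria but held IgG reads showed the strand pattern more strongly. There 64.1%, 83.7% and 75.2% of pairs in replicates 1, 2 and 3 were on the same strand, as were 54.0% in H2A.B, 93.9% in IgG MeDIP (288 windows with at least 2 reads) and 87.1% in IgG ChIP (344 windows). Replicate 2 and IgG MeDIP shared the strand in 88.0% of pairs, replicate 3 and IgG ChIP in 76.9%, and the IgG libraries shared it with each other in 85.0%. Across the lanes, replicate 3 and IgG MeDIP shared the strand in 81.3% of pairs and replicate 2 and IgG ChIP in 79.3%. All of these libraries were on the second flow cell, and the cause of the sharing was not tested. With replicate 1 the share was 63.5% for IgG MeDIP and 57.1% for IgG ChIP. The plus-strand share of these windows was 31.3% and 29.3% in replicates 2 and 3, next to 30.1% in IgG MeDIP and 27.8% in IgG ChIP. In members, the plus-strand share and the strand sharing of replicates 2 and 3 lay between the values of background windows and those of the windows with IgG reads.

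**Figure D4:**
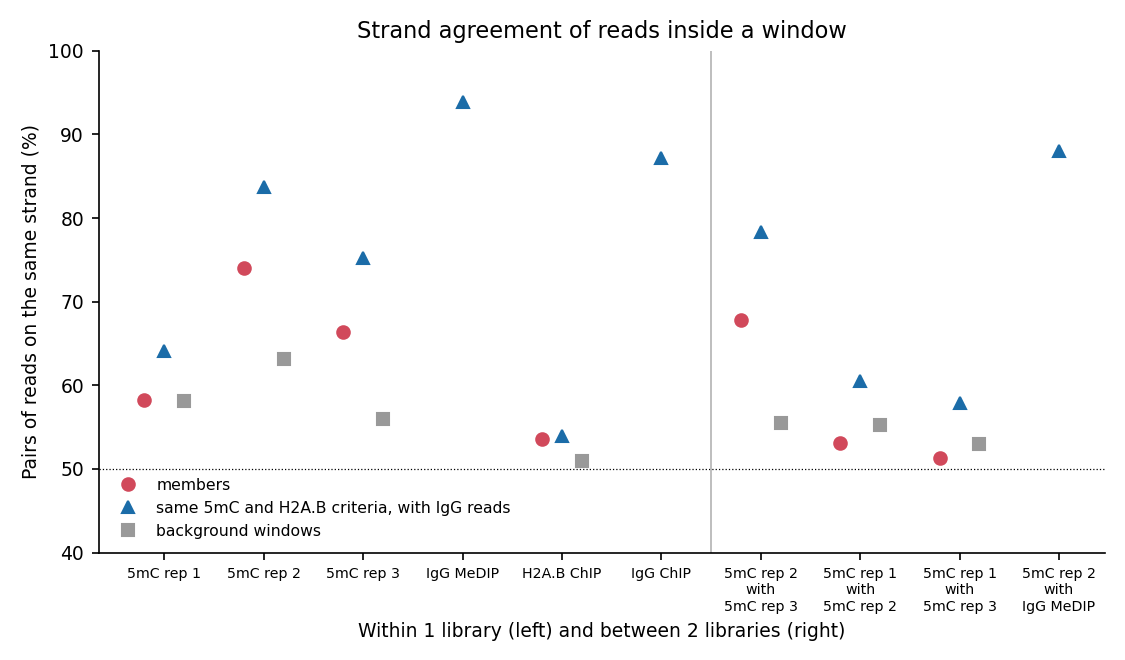
Mean share over windows of read pairs that lie on the same strand, within each library (left) and between libraries (right), for members (circles), windows that met the same 5mC and H2A.B criteria but held IgG reads (triangles) and background windows (squares). For replicates 2 and 3 the circles lie between squares and triangles, and for replicate 1 circle and square coincide at 58.2%.

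The order of reads on opposite strands was compared next. A fragment read from both ends has its minus-strand 5′ end downstream of its plus-strand 5′ end by its own length. In members with reads on both strands, each given equal weight, 45.2% of plus and minus pairs in replicate 1 were 1 to 300 bp apart in that order, against 22.4% in the reverse order. In replicate 2 the shares were 27.6% and 23.8%, in replicate 3 25.7% and 25.2%, and in H2A.B 33.9% and 24.3%. A clear excess in fragment order was thus seen in replicate 1 and H2A.B, the libraries of the first flow cell. The other windows with 1 to 9 H2A.B reads and up to 20 reads of the library gave nearly the same shares (45.0% and 20.3% in replicate 1, 26.2% and 24.7% in replicate 2, 27.1% and 24.7% in replicate 3, 31.7% and 23.6% in H2A.B), so the pattern belonged to the libraries and was not particular to the members. IgG MeDIP had 29.2% and 23.7% in other windows, and IgG ChIP 27.9% and 24.8%.

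**Figure D5:**
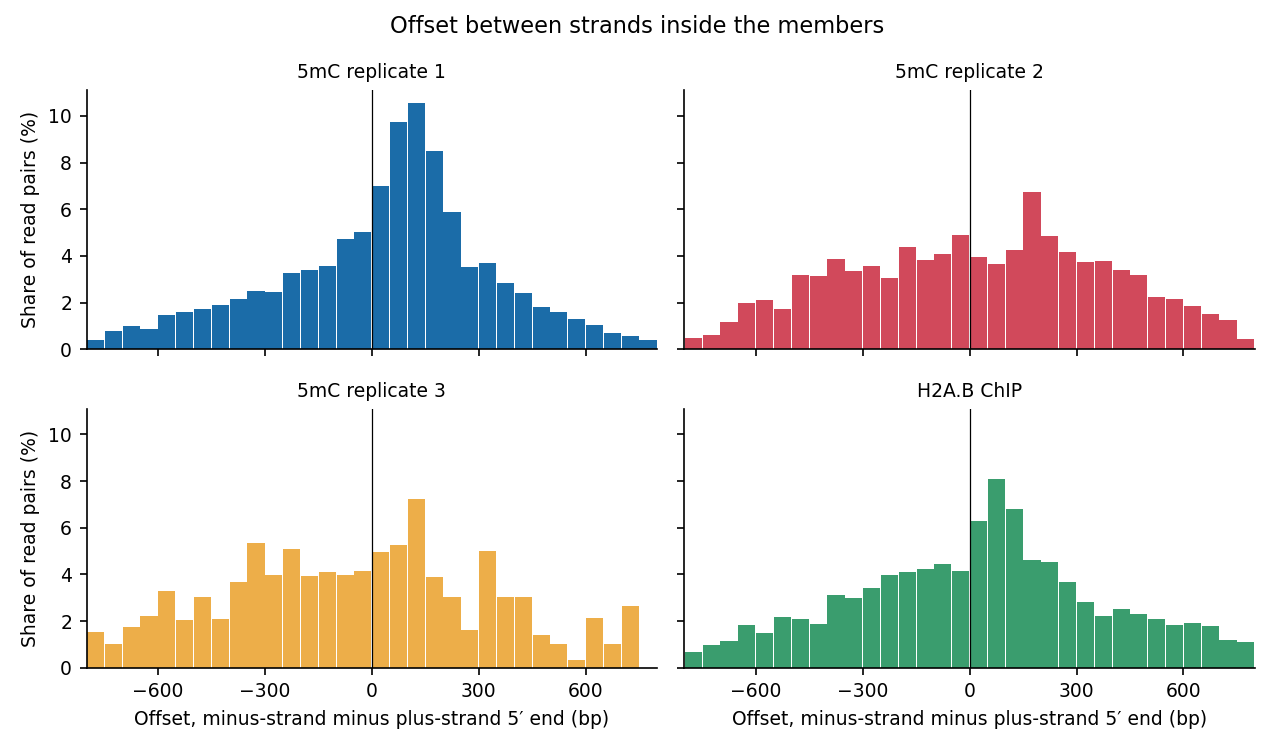
Share of plus and minus read pairs in members, each member weighted equally, by the offset of the minus-strand 5′ end from the plus-strand 5′ end, in 50 bp bins, for the 5mC replicates and H2A.B ChIP. Replicate 1 peaks at 100 to 149 bp with 10.6% of pairs and H2A.B also has its highest bins just right of 0, whereas replicates 2 and 3 have lower single peaks, 6.73% at 150 to 199 bp and 7.25% at 100 to 149 bp, and similar totals on either side of 0.

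The median span from first to last read was 497, 482 and 254 bp in 5mC replicates 1, 2 and 3 and 618 bp in H2A.B, and it depends on the number of reads. Neighbouring reads on the same strand were within 5 bp of each other in 8.37% of cases in replicate 1, 24.4% in replicate 2 and 10.4% in replicate 3, against 4.19% in H2A.B. Their median gap was 48, 24, 128 and 126 bp in the same order, and it too depends on that number. In the windows with IgG reads, replicate 2 had 44.6% of its gaps within 5 bp and replicate 3 had 26.7%. In members as in the windows with IgG reads, replicate 2 had the highest share of start positions that nearly touched.

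The middle of the reads differed between replicates by a median of 114 bp for replicates 1 and 2, 167.5 bp for 1 and 3, and 151 bp for 2 and 3. It lay within 100 bp in 43.9%, 33.6% and 38.1% of members. In the windows with IgG reads the median distances were 92, 129 and 69.75 bp. There the pair of replicates 2 and 3 was the closest, whereas in members it was the pair of replicates 1 and 2. Such distances depend on the number of reads in a window, which was not matched between the sets, and none are given for background windows. Exact start positions were seldom shared. In members 38 of the 5010 positions of replicate 1 in members were also in replicate 2 and 15 were in replicate 3, while 100 of the 4472 positions of replicate 2 were in replicate 3. These were 0.758%, 0.299% and 2.24% of positions, against 2.99%, 1.87% and 2.09% over chromosomes 1 to 19. Replicate 1 thus shared fewer positions in members than over the autosomes as a whole, and replicates 2 and 3 shared about as many. The autosome-wide shares take in windows that the rule left out, such as those with IgG reads, and no share for background windows is given here.

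The number of deposited reads per distinct position was 1.14, 1.35 and 1.93 in 5mC replicates 1, 2 and 3 in members and 1.04 in H2A.B. Background windows had 1.22, 1.29 and 1.51 in the 5mC replicates and 1.04 in H2A.B, and the windows with IgG reads had 1.16, 1.83 and 2.99 in the 5mC replicates. Replicate 3 thus had more copies per position in members than in the background, and replicate 1 fewer. When every deposited read was counted, 1551 windows met the rule, 643 of them members. When reads on the same strand within 10 bp were merged, an alternative added after the data had been seen, 516 windows met it, of which 464 were members.

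Most members lay singly, 661 of the 669 with no neighbouring member. The other 8 lay next to a member, 48 of the 650 gaps between members were 100 kb or less, and the median gap was 1917.5 kb. Members made up 0.0271% of all windows, and whether they lay closer together than this share would give was not tested. Chromosome 11 held 70 members, or 9.21 per 10000 background windows, 2.24 times the rate over all autosomes, and chromosome 8 held 52, at 1.58 times that rate. Chromosome 9 had 17, at 0.487 times. Of the 1186 windows with IgG reads, 88 lay on chromosome 11, 74 on chromosome 8 and 55 on chromosome 9, with the most, 114, on chromosome 1. Chromosome 1 also had more background windows, 120702, against 76007 on chromosome 11, 80176 on chromosome 8 and 84702 on chromosome 9. Rates of the windows with IgG reads per background window were not computed, so a high number on chromosome 11 is not shown to be particular to the members. On chromosome 11 the read level over all windows, relative to all autosomes, was also above 1 in every library: 1.22, 1.33 and 1.35 in the 5mC replicates, 1.13 in H2A.B, 1.41 in IgG MeDIP and 1.35 in IgG ChIP. On chromosome 8 it was 1.09, 1.29 and 1.15 in the 5mC replicates, 1.03 in H2A.B, 1.37 in IgG MeDIP and 1.20 in IgG ChIP. The part of these levels in the number of members was not tested. The last 5 Mb of the chromosomes held 56 members, or 8.37%, against 3.86% of background windows. No such share is given for the windows with IgG reads, so the higher share is not shown to be particular to the members.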

How the data were processed

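Each of the 6 deposited files is a read list: a position in build mm9, a strand, a read name and a score. The authors' score is the same in every line, and no use was made of it. Bowtie made the alignments and FastQC the read checks, per the submitters' processing notes, without versions. How multiply matching reads were handled is not given in the sources used here. Per the labels' protocols, MeDIP libraries had 15 PCR cycles and ChIP libraries 20.

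From the files, reads on chromosomes 1 to 19 were reduced to distinct 5′ positions per strand. Replicate 2 lost the 201263 reads also listed in IgG MeDIP. Lines without tab format (8 in replicate 1, 1 in H2A.B) were left out. Distinct reads were counted by 5′ end in 1 kb windows, and CPM is per 1000000 distinct reads on chromosomes 1 to 19. Coordinates count from 1. The members and lists were chosen with earlier results of these data known. Named windows are the 12 members with the highest minimum CPM over the 5mC replicates, chromosome 18 left out. Ratios of means have exact Poisson intervals and shares have Wilson intervals, at 95%, for counting error only. The ratios of left-out libraries and the same-strand shares were tested on simulated counts, and the other steps were not tested in this way. Windows are not replicates, and no p was computed. The planned CpG content, repeats and gene lists were not analysed here, since no mm9 genome or annotation was used. Python 3.11.15, NumPy 2.4.6, SciPy 1.17.1, pandas 2.3.3 and matplotlib 3.10.9 were used. Alternatives covered duplicates, thresholds, the window grid, parts of replicate 2, the background, and leaving out each replicate.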

Additional observations from a re-analysis of the deposited data

How the results depend on the processing

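The number of members moved with most choices. It was 1551 with duplicates kept, 307 with the first sorted block of the replicate 2 list alone, 80 with 1 read more in each replicate, 1019 with no limit on H2A.B, 1855 with no condition on IgG, 137 with both strands in every 5mC replicate, and 2685 to 5725 with 1 replicate's criterion left out. It was 633 on the shifted grid. Keeping the IgG reads in replicate 2 gave 669 by construction, since members hold none. The mean ratio of the left-out 5mC replicates ran from 2.72 to 4.66 under the alternatives run, and from 3.17 to 4.53 with 1 replicate left out of it. Single replicates, under the alternatives that kept the IgG condition, ran from 1.68 (replicate 3, standardised) to 6.00 (replicate 2, 1 read more). The ratio of IgG MeDIP was 10.5 with duplicates kept, 14.2 with no floor on H2A.B in the background, 8.62 with the background standardised to H2A.B, 17.9 with the first block of replicate 2, 15.2 on the shifted grid and 21.9 with 1 read more. Chosen by pairs of replicates it was 11.1, and 7.62 when standardised. IgG ChIP was at 3.29 with duplicates kept, 2.49 standardised, 3.48 with the first block, 4.23 with 1 read more and 2.55 by standardised pairs. H2A.B was at 2.46, 2.89 and 3.89 with duplicates kept, the first block and 1 read more. The cause was not tested. Flanks had 1 alternative (members kept) and strand shares had 1 (the 661 members with no neighbouring member), which moved them by less than their spread, and no other was run for them. No paired analysis was possible because only the 5mC libraries carry replicate numbers. The 121384 IgG MeDIP reads limit what 0 reads in a window can show.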

Other observations

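In the second named window (chromosome 5, 54727001 to 54728000), picked out after its values were seen, the 9 distinct reads of 5mC replicate 3 lay on the plus strand over 195 bp with spacings that were all multiples of 15 bp. The 18 reads of replicate 1 and the 11 of replicate 2 in that window had no common spacing above 1 bp.

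The list of 5mC replicate 2 consists of 4 blocks sorted separately, the third of which is the list of IgG MeDIP. Of the replicate 2 reads in members, 55.6% came from the first block, 41.0% from the second and 3.44% from the fourth, against 54.2%, 36.8% and 8.99% of all reads of that replicate on chromosomes 1 to 19.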
